A study of Mus musculus with 29 samples.

Results

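The genes described here are the 45 mouse proteasome genes of the count table, out of 38924 Ensembl identifiers. Membership followed a rule on names, and the family was chosen with earlier results of these data known. A gene was taken where its identifier maps to a protein-coding symbol that begins with Psma, Psmb, Psmc, Psmd or Psme followed by a digit. The rule left out 3 pseudogenes. RNA-seq was done on C57BL/6 bone marrow cells that carried a Dnmt3a mutation or were controls, in LT-HSC and ST-HSC (long-term and short-term haematopoietic stem cells) and in the multipotent progenitors MPP3 and MPP4. Mutant and control mice alike were young and had been given pIpC, a synthetic RNA analogue, 6 weeks earlier. The mutant and control libraries number 3 and 4 for LT-HSC, 4 and 3 for ST-HSC, 4 and 3 for MPP3, and 4 and 4 for MPP4, which makes 29 in all. The sources used here give neither the mutant allele nor a Cre driver, nor say whether the controls carried Cre. For the mutant ST-HSC libraries the title gives only the gene, so the genotype was read from the title with the letter in the description, and the design text counts 3 mutant MPP3 libraries where the sample list holds 4. The labels do not tie each replicate to its own animal, and p-values therefore measure only the spread between these libraries, which may be technical.

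The proteasome is the protease that degrades most ubiquitin-tagged proteins of the cell. Its core particle (20S) is a barrel of alpha rings, which gate the entrance, around beta rings that hold the protease sites of Psmb5 (chymotrypsin-like), Psmb6 (caspase-like) and Psmb7 (trypsin-like). The regulatory particle (19S) binds ubiquitin chains, removes them and unfolds the substrate with its ATPases. In immune cells and under interferon, Psmb8, Psmb9 and Psmb10 take the places of Psmb5, Psmb6 and Psmb7 in new particles, and Psme1 and Psme2 form the PA28 cap; both change which peptides reach MHC class I. Blood stem cells are known for low protein synthesis and for sensitivity to disturbed protein degradation.

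By role, the 45 genes comprise 8 alpha subunits, 7 constitutive beta subunits, 4 beta subunits of the immunoproteasome and thymoproteasome, 6 ATPases and 11 non-ATPase subunits of the regulatory particle, 3 chaperones of its assembly and 5 activators. The remaining 1, Psmc3ip, shares the name stem but is a meiotic recombination factor and not a subunit. It was kept because the naming rule takes it, and it is reported apart from the subunits.

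Depth ran from 6133994 to 10374672 counts per library, and all 45 genes passed the filter on low counts in every comparison. Dnmt3a itself had 92.3 to 222 CPM (counts divided by the TMM-adjusted library total and put on one scale for all libraries) over the mutant libraries and 82.0 to 167 CPM over the control libraries; with the allele not given, this level does not check the labels. Some libraries stood apart by markers of other cells. The summed CPM of 8 neutrophil markers was 60.2 to 437 in the mutant LT-HSC libraries, and 11647, 3782, 1614 and 47.6 in control LT-HSC replicates 1 to 4. Control LT-HSC replicates 1 to 3 were thus high, and their erythroid markers were high as well. The MPP3 libraries of both genotypes had high sums of 7 markers of antibody-secreting cells, 1182 to 14628 CPM in mutant and 919 to 5975 CPM in control libraries. In control ST-HSC the highest library reached 1608 CPM of these markers, where the median of the group was 76.4 CPM and the lowest 6.90 CPM. Mutant ST-HSC replicate 2 had 406 CPM of Slamf1, an LT-HSC marker, against 0.777 to 1.83 CPM in the other mutant ST-HSC libraries.

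Promoter windows are shown for the members on which the population results turn, Psmb8 and Psme1, and for Psmb9 and Psmb5, the immune and constitutive subunits they are set beside. Each runs from 250 bases before to 50 bases after the RefSeq start (GRCm38.p6), 5′ to 3′ on the gene's strand, with matches to 5 motifs in capitals. The genes themselves lie in GRCm38 at chr17:34197721-34201454 (Psmb8), chr14:55578123-55581529 (Psme1), chr17:34181987-34187764 (Psmb9) and chr14:54614119-54618022 (Psmb5). The window of Psmb8 lies at chr17:34197945-34198244 (+), that of Psme1 at chr14:55578244-55578543 (+), Psmb9 at chr17:34187281-34187580 (-) and Psmb5 at chr14:54617946-54618245 (-).
Psmb8: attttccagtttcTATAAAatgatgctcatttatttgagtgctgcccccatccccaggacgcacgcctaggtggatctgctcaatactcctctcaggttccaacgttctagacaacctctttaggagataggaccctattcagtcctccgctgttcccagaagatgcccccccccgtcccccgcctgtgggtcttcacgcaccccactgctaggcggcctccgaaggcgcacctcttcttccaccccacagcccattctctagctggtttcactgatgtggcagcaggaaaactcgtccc
Psme1: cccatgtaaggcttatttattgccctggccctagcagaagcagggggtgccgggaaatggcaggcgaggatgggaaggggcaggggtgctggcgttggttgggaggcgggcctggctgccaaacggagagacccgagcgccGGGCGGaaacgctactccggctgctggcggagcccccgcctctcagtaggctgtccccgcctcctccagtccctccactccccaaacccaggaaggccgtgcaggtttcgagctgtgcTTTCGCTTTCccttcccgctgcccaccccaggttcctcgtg
Psmb9: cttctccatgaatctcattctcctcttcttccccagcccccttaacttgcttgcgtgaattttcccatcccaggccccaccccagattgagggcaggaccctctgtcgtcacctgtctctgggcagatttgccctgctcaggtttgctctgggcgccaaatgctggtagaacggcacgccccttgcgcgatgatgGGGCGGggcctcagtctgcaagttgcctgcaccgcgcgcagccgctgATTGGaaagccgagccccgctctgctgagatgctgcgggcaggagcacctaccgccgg
Psmb5: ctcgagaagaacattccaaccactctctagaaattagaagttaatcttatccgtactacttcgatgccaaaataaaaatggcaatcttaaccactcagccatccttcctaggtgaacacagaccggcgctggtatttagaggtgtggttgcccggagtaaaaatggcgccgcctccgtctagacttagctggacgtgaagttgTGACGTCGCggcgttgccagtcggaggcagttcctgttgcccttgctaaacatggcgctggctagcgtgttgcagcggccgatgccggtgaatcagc

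The motifs were searched on both strands, and different motifs could overlap. The interferon regulatory factor form, a pair of GAAA words with any 2 bases between them, was found in 4 of the 38 genes with a window (Psmb3, Psmd4, Psmd9 and Psme1) and in 3.44% of all 32851 windows. In Psme1 it lies on the reverse strand (TTTCGCTTTC), 10 bases after the start. TGACNNNGC, the antioxidant response form, was found in 6 genes and in 12.4% of all windows, and the match of Psmb5 (TGACGTCGC) lies 47 bases before its start. GGGCGG (GC box) was found in 22 genes and in 35.7% of all windows. CCAAT was found in 15 genes and in 37.4%, and TATAAA in 4 genes and in 13.6%. Counted by window, 9.76% of the 41 member windows held the interferon regulatory factor form and 14.6% the antioxidant response form. The shares were 56.1% for GGGCGG, 36.6% for CCAAT and 9.76% for TATAAA. The Psmb9 window shares 275 bases with that of Tap1, a peptide transporter gene read in the other direction. These matches describe the letters and are not binding sites.

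The proteasome genes were read in every population. By group, they held 0.228 ± 0.0165% of the counts in mutant and 0.213 ± 0.00710% in control LT-HSC (SD, n = 3 and 4), and 0.226 ± 0.0228% in mutant and 0.214 ± 0.0115% in control ST-HSC (SD, n = 4 and 3). The shares were 0.222 ± 0.0176% in mutant and 0.241 ± 0.0342% in control MPP3 (SD, n = 4 and 3), and 0.234 ± 0.0250% in mutant and 0.230 ± 0.0412% in control MPP4 (SD, n = 4 each). The ranges of all 8 groups overlapped, and single libraries ran from 0.198% to 0.290%. Mitochondrial genes with Gm42418 held 22.6% to 41.0% of the counts per library. They were least in control MPP3 replicate 2 (22.6%) and control MPP4 replicate 2 (24.6%), which had the highest shares of proteasome genes (0.280% and 0.290%). They were most in mutant ST-HSC replicate 2, which had the lowest (0.198%). Of the remaining counts the proteasome genes held 0.302% to 0.404%. The part of this content was not tested. These are bulk libraries of sorted cells, in which fewer cells of a type and less RNA per cell cannot be told apart.

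Levels between genes were compared only per length, as TMM-scaled CPM per kilobase of merged exons averaged over the 29 libraries. The highest level per kilobase was that of the activator Psme1 (106), followed by Psme3 (51.1), which forms the nuclear PA28 gamma cap, and by the alpha subunit Psma6 (44.6). Lowest were Psma8 (1.29), an alpha subunit known from testis, the assembly chaperone Psmd9 (2.10) and Psme2b (4.08), a close copy of Psme2 in sequence. Psme1 was also highest when the longest coding transcript was taken as the length (210 CPM per kilobase). The order below it changed: Psmb9 (64.9) came next, then Psme3 (56.5), and Psma6 (52.9) fell to rank 6. Lowest by that length were Psma8 (1.91), Psme2b (4.08) and Psmb11 (5.76), and Psmd9 then had 5.86.

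**Figure D1:**
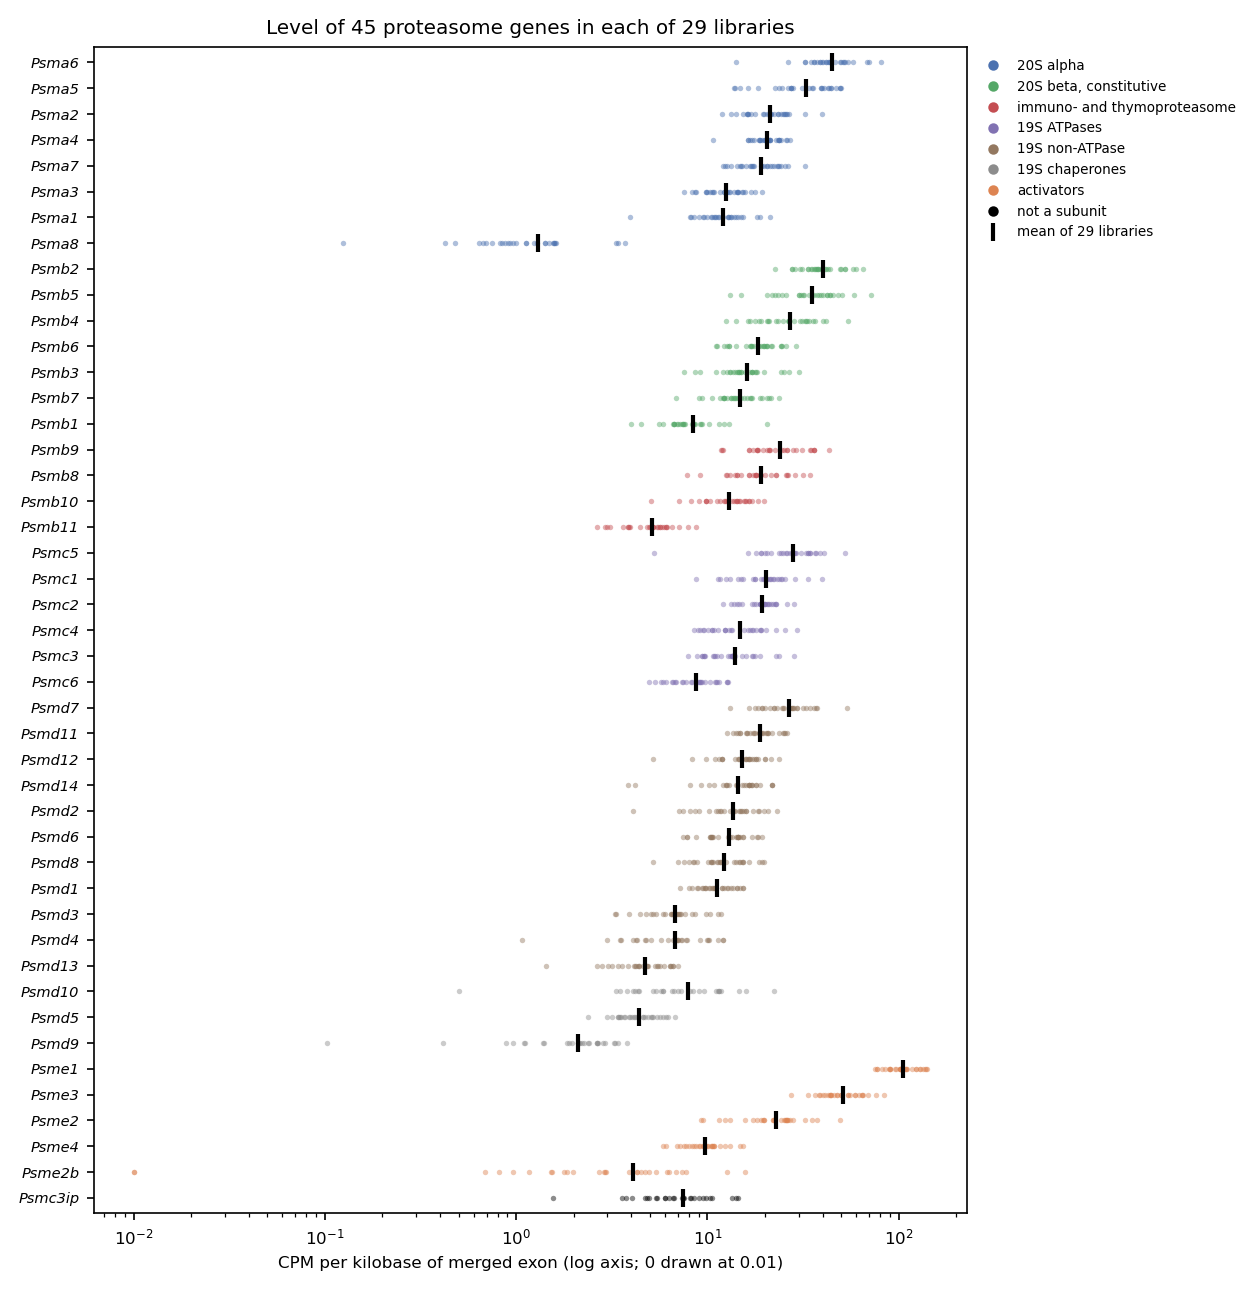
Level of each of the 45 genes in each of the 29 libraries, in TMM-scaled CPM per kilobase of merged exons on a log axis, grouped by role, with the mean of all libraries as a black tick (values of 0 drawn at 0.01). Psme1 lies highest with a mean of 106, and Psma8 lowest with a mean of 1.29.

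Among alpha subunits other than Psma8, levels in CPM averaged 35.8 ± 10.4 for Psma1 to 78.2 ± 21.7 for Psma2 over all libraries (SD, n = 29). Among constitutive beta subunits they averaged 31.8 ± 11.4 for Psmb5 to 52.8 ± 18.2 for Psmb4 (SD, n = 29). Of the ATPases, Psmc2 was read most (96.6 ± 18.5 CPM) and Psmc6 least (30.3 ± 8.03 CPM), and of the non-ATPase subunits Psmd11 most (120 ± 23.8 CPM) and Psmd13 least (15.8 ± 4.70 CPM; SD, n = 29). These are levels per gene, not per length, and give the depth behind each gene. Psma8 had 2 to 73 counts per library. Psmb11, the beta subunit of the thymoproteasome and known from cortical epithelium of the thymus, had 75 to 265 counts in every library, or 24.5 ± 7.04 CPM (SD, n = 29). Psme2b was at 0 in 2 libraries and reached 96 counts.

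No proteasome gene passed the test for a difference between mutant and control cells in any population. In edgeR's quasi-likelihood test with Benjamini-Hochberg adjustment over all genes, at a threshold of 0.05, 0 of 45 were called in each of the 4 populations. Of all genes tested, 0.00737% were called in MPP3 and 0% in every other population. DESeq2 also called 0 members in each. At an unadjusted p under 0.05 there were 2 members in MPP4 (3.1% of all genes), 0 in MPP3 (2.18%), 4 in ST-HSC (3.73%) and 0 in LT-HSC (8.16%). Over all genes, 1 gene outside the proteasome was called in MPP3 and 0 in the other 3 populations.

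By direction, 31 of the 45 were higher in mutant than in control MPP4 (50.7% of all genes), 22 in MPP3 (51.2%), 29 in ST-HSC (50.7%) and 17 in LT-HSC (50.1%). The median log2 difference over the 45 was 0.12 in MPP4 and -0.00 in MPP3, 0.12 in ST-HSC and -0.03 in LT-HSC, against 0.01 in MPP4, MPP3 and ST-HSC and 0.00 in LT-HSC over all genes. The widest spread was in ST-HSC, where 4 of 45 were beyond 1 on the log2 scale in either direction (Psmd2, Psme2, Psmc3ip and the low-count Psma8). The narrowest was in MPP4, where 0 were. By quartiles, all genes were also spread most widely in ST-HSC (-0.31 to 0.34) and least in MPP4 (-0.23 to 0.22). The 95th percentile of all genes in ST-HSC was 1.07, so values above 1 were not particular to the members. The 95% interval lay within 1 log2 unit of no difference for 37 members in MPP4 (50.4% of all genes), 28 in MPP3 (33.9%), 15 in ST-HSC (25.8%) and 37 in LT-HSC (41.5%).

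**Figure D2:**
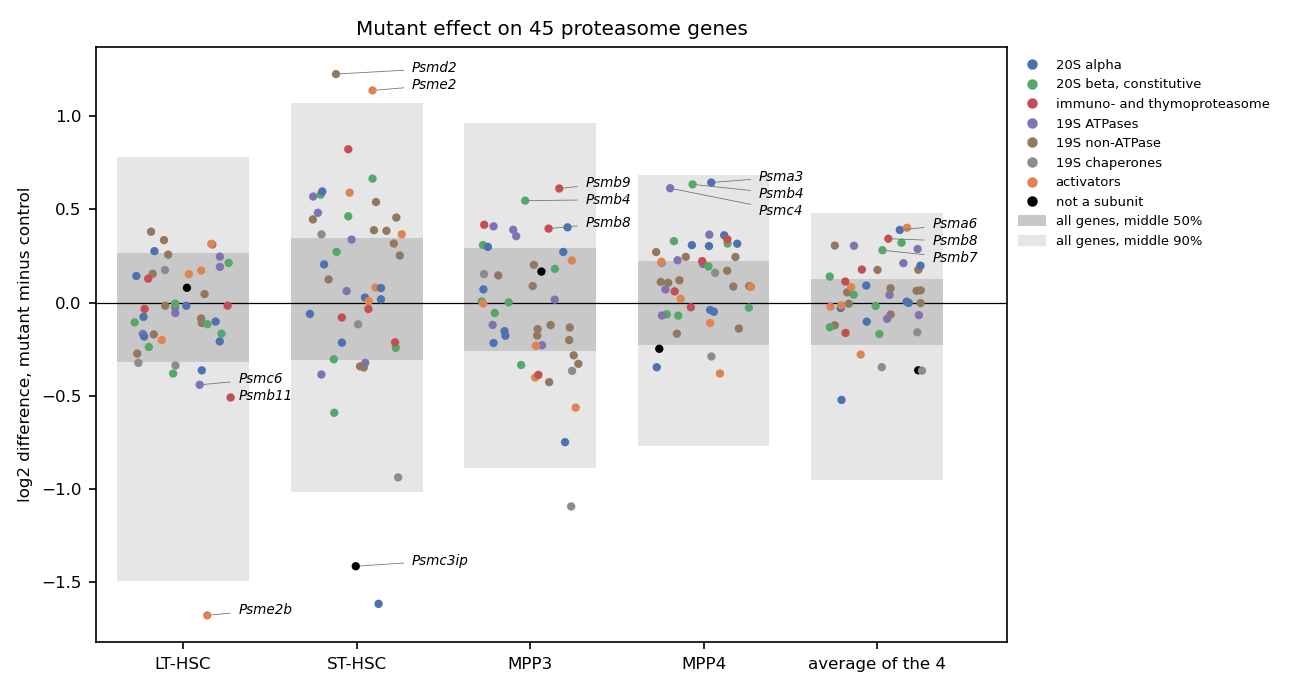
Log2 difference of mutant over control for each of the 45 genes (points) in each population and for the average of the 4, with grey boxes for the middle 50% and 90% of all genes tested and names on the 3 members with the smallest p. The medians of the members are -0.03 (LT-HSC), 0.12 (ST-HSC), -0.00 (MPP3), 0.12 (MPP4) and 0.04 (average).

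In ST-HSC the smallest p belonged to Psmd2, the scaffold subunit of the regulatory particle that docks ubiquitin shuttles. Psmd2 (GRCm38 chr16:20651652-20663414) had 63.0, 83.9, 52.8 and 59.1 CPM in mutant ST-HSC, against 29.9, 36.3 and 16.6 CPM in control ST-HSC. All 4 mutant libraries lay above all 3 control libraries. The log2 difference was 1.23 (SE 0.34, 95% interval 0.49 to 1.96), with an adjusted p of 0.998 by edgeR's quasi-likelihood test with Benjamini-Hochberg adjustment. In the other populations Psmd2 averaged 65.6 ± 16.7 CPM in mutant and 51.7 ± 8.56 CPM in control LT-HSC (SD, n = 3 and 4), and 57.5 ± 2.76 CPM in mutant and 63.5 ± 26.8 CPM in control MPP3 (SD, n = 4 and 3). It averaged 49.5 ± 22.5 CPM in mutant and 54.7 ± 18.2 CPM in control MPP4 (SD, n = 4 each), and in these 3 populations the ranges overlapped. Whether the mutant effect differs between populations was tested directly by edgeR's quasi-likelihood F test, which gave Psmd2 an adjusted p of 0.767.

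Psme2, the partner of Psme1 in the PA28 cap, had 39.2, 87.0, 30.6 and 33.4 CPM in mutant ST-HSC, against 27.6, 20.2 and 16.7 CPM in control ST-HSC. The ranges did not overlap, and the highest value belongs to mutant replicate 2, the library high in Slamf1. The log2 difference was 1.14 (SE 0.43) with an adjusted p of 0.998 in edgeR with Benjamini-Hochberg adjustment, and 0.67 without that library. Psmb8, the immune counterpart of Psmb5, had 76.8, 42.7, 63.4 and 64.4 CPM in mutant ST-HSC, against 47.3, 26.3 and 31.0 CPM in control ST-HSC, and the ranges overlapped. Its log2 difference was 0.82 (SE 0.32), also with an adjusted p of 0.998 in edgeR with Benjamini-Hochberg adjustment.

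Psmc3ip, which is not a subunit, had 10.9, 2.82, 6.53 and 6.85 CPM in mutant ST-HSC, against 13.4, 14.8 and 26.1 CPM in control ST-HSC. Each mutant library was below each control library. The log2 difference was -1.41 (SE 0.54), with an adjusted p of 0.998 in edgeR with Benjamini-Hochberg adjustment. Its exons overlap those of Mlx on the other strand over 21.2% of their length, and the sources used here do not give the strand setting of the counting.

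In MPP4 the smallest p was that of Psma3, an alpha ring subunit (GRCm38 chr12:70974621-70996347), with 69.0, 56.5, 51.3 and 56.1 CPM in mutant MPP4, against 42.1, 39.9, 38.5 and 29.2 CPM in control MPP4. All mutant libraries were above all control libraries. The log2 difference was 0.64 (SE 0.22), with an adjusted p of 0.999 in edgeR with Benjamini-Hochberg adjustment. Psmb4, a beta subunit without a protease site, followed with 78.3, 41.2, 69.8 and 39.8 CPM in mutant MPP4, against 24.3, 51.8, 40.3 and 31.8 CPM in control MPP4. These ranges overlapped, with a log2 difference of 0.63 (SE 0.28). Psmc4, an ATPase of the regulatory particle, had 43.8, 28.6, 63.4 and 26.6 CPM in mutant MPP4 and 21.7, 38.7, 19.2 and 26.7 CPM in control MPP4, a log2 difference of 0.61 (SE 0.32), which was 0.32 without mutant replicate 3. Psmb4 and Psmc4 also had adjusted p-values of 0.999 in edgeR with Benjamini-Hochberg adjustment.

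In LT-HSC the smallest p was that of the thymoproteasome subunit Psmb11, with 23.8, 14.7 and 18.9 CPM in mutant LT-HSC, against 27.6, 26.5, 25.01 and 29.2 CPM in control LT-HSC. The mutant values were all below the control values. The log2 difference was -0.51 (SE 0.28) with an adjusted p of 0.685 in edgeR with Benjamini-Hochberg adjustment, and -0.60 without the 3 control libraries high in neutrophil markers. The next members, the ATPase Psmc6 and the activator-like Psme2b, had log2 differences of -0.44 and -1.68, which were -0.24 and -1.002 without control replicate 1 and became 0.04 and 5.95 when those 3 libraries were left out. The single control LT-HSC library then left has a Psme2b count of 0, so 5.95 is a fitted value and no measure of size.

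In MPP3 the smallest p belonged to Psmb9, the immune counterpart of Psmb6, with 43.8, 95.4, 78.1 and 132 CPM in mutant MPP3, against 66.6, 60.2 and 44.3 CPM in control MPP3. The mutant libraries ran from just below the lowest control value to well above the highest. The log2 difference was 0.61 (SE 0.33) with an adjusted p of 1.00 in edgeR with Benjamini-Hochberg adjustment, and 0.34 without mutant replicate 4. Psmb4 had 106, 52.2, 45.6 and 60.9 CPM in mutant MPP3 and 52.3, 48.5 and 34.7 CPM in control MPP3, a log2 difference of 0.55 (SE 0.32), which was 0.22 without mutant replicate 1. Psmb8 had 63.8, 88.3, 60.8 and 97.4 CPM in mutant MPP3 and 59.6, 55.8 and 61.0 CPM in control MPP3, a log2 difference of 0.40 (SE 0.24). The summed markers of antibody-secreting cells vary over these MPP3 libraries as given above, and their part in these values was not tested.

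Averaged over the 4 populations in limma with voom weights, 0 of the 45 genes passed at an adjusted p under 0.05, as did 0% of all genes, and edgeR's quasi-likelihood test of the same average also called 0. At an unadjusted p under 0.05 there were 4 members, against 5.81% of all genes. These were Psmb8 with an average log2 difference of 0.34 (SE 0.13), Psma6 with 0.39 (SE 0.15), Psmb7 with 0.28 (SE 0.13) and Psme2 with 0.40 (SE 0.19). Their adjusted p-values in limma ran from 0.778 to 0.848. The median over the 45 was 0.04, against -0.03 over all genes, and 24 were higher, against 45.7% of all genes. For 43 of the 45 the 95% interval of the average lay within 1 log2 unit of no difference, as it did for 65.0% of all genes. For Psme1 it ran from -0.10 to 0.26 and for Psmb8 from 0.07 to 0.61. The test of whether the mutant effect differs between populations called 0 members by edgeR, with 1 at an unadjusted p under 0.05 (Psmd2), against 0% and 5.82% of all genes.

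By role, the average mutant effect had medians of 0.00 over the 8 alpha subunits, 0.04 over the 7 constitutive beta subunits and 0.14 over the 4 immune and thymic beta subunits. The medians were 0.13 over the 6 ATPases, 0.06 over the 11 non-ATPase subunits, -0.35 over the 3 assembly chaperones and -0.01 over the 5 activators. The chaperones Psmd5, Psmd9 and Psmd10 were all lower on average, with a range of -0.37 to -0.16, and 0 of them passed at an unadjusted p under 0.05. Mutant MPP3 replicate 1 stood apart, with 4 counts (0.742 CPM) each of Psmd9 and Psmd10, the lowest of the 29 libraries for both. Its mean over the 3 chaperones was 1.501 log2 CPM, against 3.47 to 4.81 log2 CPM in the other libraries. Without it the median of the chaperones was -0.17, with a range of -0.20 to -0.14, and without mutant ST-HSC replicate 2 the median was -0.19. The medians describe lists and have no test.

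Between populations, 2 proteasome genes were higher in MPP4 than in LT-HSC: Psmb8, the immunoproteasome subunit that replaces Psmb5, and Psme1, the PA28 alpha cap subunit. These 2 are 4.44% of the 45, which is near the background of all genes in this contrast, of which 2.9% were called higher and 7.18% in either direction. Psmb8 had 88.9, 72.8, 117 and 60.8 CPM in mutant MPP4 and 55.8, 107, 86.8 and 77.0 CPM in control MPP4. It had 44.5, 67.7 and 50.5 CPM in mutant LT-HSC and 48.1, 48.0, 58.2 and 42.5 CPM in control LT-HSC. In each genotype the lowest MPP4 library overlapped the highest LT-HSC library, and the other MPP4 libraries lay above all LT-HSC libraries of their genotype.

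The MPP4 to LT-HSC contrast averaged over genotypes, which was added after the single-genotype results were seen, gave Psmb8 a log2 difference of 0.69 (SE 0.18, 95% interval 0.32 to 1.05), or 1.61-fold. Its adjusted p was 0.0131 in edgeR's quasi-likelihood test with Benjamini-Hochberg adjustment over all 29 libraries. Within a genotype the log2 difference was 0.64 (adjusted p = 0.399) in mutant and 0.73 (adjusted p = 0.0865) in control libraries by edgeR. Without the 3 control LT-HSC libraries high in neutrophil markers the averaged difference was 0.80 and the call was lost. The only control LT-HSC library then left had 42.5 CPM of Psmb8, the lowest of its group. Without mutant LT-HSC replicate 1 the averaged difference was 0.63 with an adjusted p of 0.0554 in edgeR. Over the 29 ways of leaving out 1 library it ran from 0.59 to 0.79.

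Psme1 had 182, 302, 308 and 271 CPM in mutant MPP4 and 285, 312, 258 and 294 CPM in control MPP4. It had 186, 210 and 245 CPM in mutant LT-HSC and 166, 171, 200 and 227 CPM in control LT-HSC. All control MPP4 libraries were above all control LT-HSC libraries, whereas mutant MPP4 replicate 1 was below all mutant LT-HSC libraries. The averaged log2 difference was 0.45 (SE 0.13, 95% interval 0.20 to 0.71), or 1.37-fold, with an adjusted p of 0.0208 in edgeR with Benjamini-Hochberg adjustment. Within a genotype it was 0.31 (adjusted p = 0.728) in mutant and 0.59 (adjusted p = 0.0511) in control libraries by edgeR. Without the 3 marker-high control LT-HSC libraries the averaged difference was 0.33 and the call was lost. The only control LT-HSC library then left had 227 CPM of Psme1, the highest of its group. The call of Psme1 was also lost without mutant LT-HSC replicate 1 (0.41, adjusted p = 0.0802), without control LT-HSC replicate 2 (0.43, 0.0511), and without mutant MPP4 replicate 2 (0.42, 0.0507) or 3 (0.41, 0.0512).

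The largest log2 difference of this contrast was that of the low-count gene Psme2b, with 3.58, 10.5, 4.48 and 3.59 CPM in mutant and 13.1, 3.74, 5.71 and 6.46 CPM in control MPP4. It had 0.802, 1.27 and 0.572 CPM in mutant LT-HSC and 6.15, 3.92, 1.29 and 0 CPM in control LT-HSC. The mutant ranges did not overlap and the control ranges did. The averaged log2 difference was 1.99 (SE 0.67), with an adjusted p of 0.0671 in edgeR with Benjamini-Hochberg adjustment. That p became 0.0365 without control LT-HSC replicate 1 and 0.0335 without mutant MPP3 replicate 1, which enters through the shared spread.

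**Figure D3:**
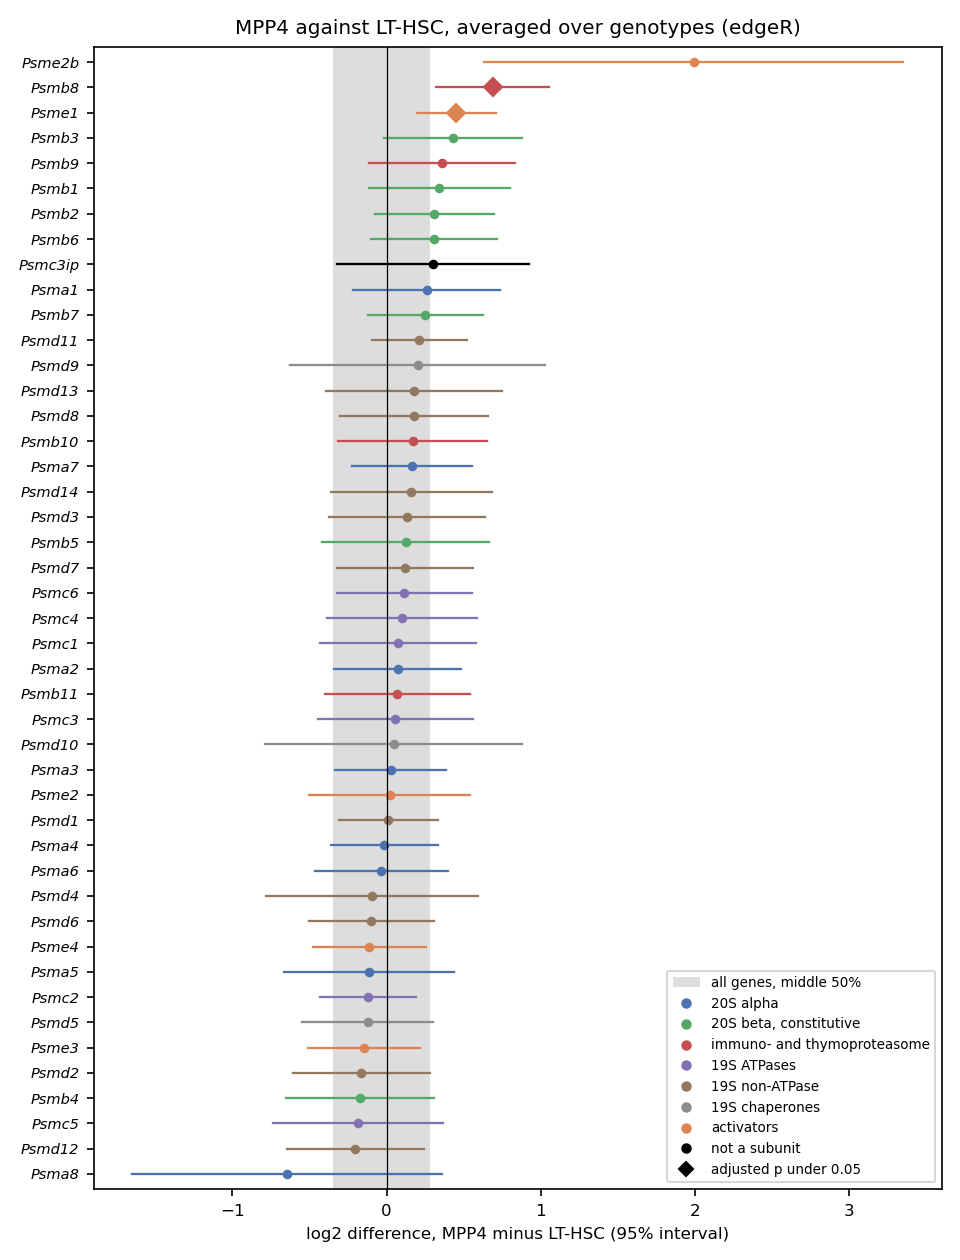
Log2 difference of MPP4 over LT-HSC averaged over genotypes for each of the 45 genes, with 95% intervals; diamonds mark an adjusted p under 0.05 and the grey band the middle 50% of all genes. Psmb8 (0.69) and Psme1 (0.45) are marked; Psme2b has the largest value (1.99) and a wide interval.

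DESeq2 was run within each genotype and called Psme1 (0.57, adjusted p = 0.0135) and Psmb8 (0.71, adjusted p = 0.0483) in control MPP4 against control LT-HSC, and Psme2b in mutant MPP4 against mutant LT-HSC. The share of all genes that DESeq2 called is not given, so these calls cannot be read against a background. By edgeR 0 members were called within either genotype, against 2.17% of all genes in mutant and 4.2% in control libraries, with 2 members at an unadjusted p under 0.05 in each (10.4% and 15.5% of all genes in mutant and control libraries). At an unadjusted p under 0.05 the averaged contrast held 3 members, against 17.4% of all genes. Over the 45 members 31 were higher in MPP4 and 14 lower in the averaged contrast, with a median of 0.10, where 49.9% of all genes were higher. The median size of the difference was 0.16 for the members and 0.31 for all genes. The sums of several marker lists moved with this contrast. The 6 dendritic markers, mostly Flt3, a surface marker of MPP4 itself, summed to 427 to 473 CPM in mutant and 427 to 486 CPM in control MPP4, and to 33.5 to 76.1 CPM in mutant and 66.8 to 139 CPM in control LT-HSC. The 8 markers of G2 and mitosis summed to 1916 to 2301 CPM in mutant and 1589 to 2209 CPM in control MPP4, and to 1327 to 1795 CPM in mutant and 1534 to 4066 CPM in control LT-HSC. The mutant ranges of that list did not overlap and the control ranges did. The same held for 6 stromal and endothelial markers, which summed to 6.91 to 11.9 CPM in mutant and 5.86 to 12.5 CPM in control MPP4, and to 26.3 to 30.1 CPM in mutant and 12.3 to 91.9 CPM in control LT-HSC. Erythroid markers had median sums of 462 CPM in mutant and 468 CPM in control MPP4, and of 386 CPM in mutant and 5508 CPM in control LT-HSC, in which 3 libraries were also high in neutrophil markers. The part of these markers in the result was not tested.

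In both genotypes the mean of Psmb8 was highest in MPP4 and next in MPP3, while ST-HSC was above LT-HSC in mutant and below it in control cells. Its means were 84.8 ± 24.2 CPM in mutant and 81.7 ± 21.3 CPM in control MPP4 (SD, n = 4 each), and 77.6 ± 18.1 CPM in mutant and 58.8 ± 2.71 CPM in control MPP3 (SD, n = 4 and 3). In ST-HSC they were 61.8 ± 14.2 CPM in mutant and 34.9 ± 10.999 CPM in control libraries (SD, n = 4 and 3), and in LT-HSC 54.2 ± 12.05 CPM in mutant and 49.2 ± 6.57 CPM in control libraries (SD, n = 3 and 4). Averaged over genotypes, MPP4 over MPP3 gave 0.30 (95% interval -0.06 to 0.67) and ST-HSC over LT-HSC gave -0.15 (-0.53 to 0.23), and neither passed. MPP3 over LT-HSC gave 0.39 (0.01 to 0.76) and did not pass either, with an adjusted p of 0.227 in edgeR with Benjamini-Hochberg adjustment. MPP3 was not tested against ST-HSC.

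**Figure D4:**
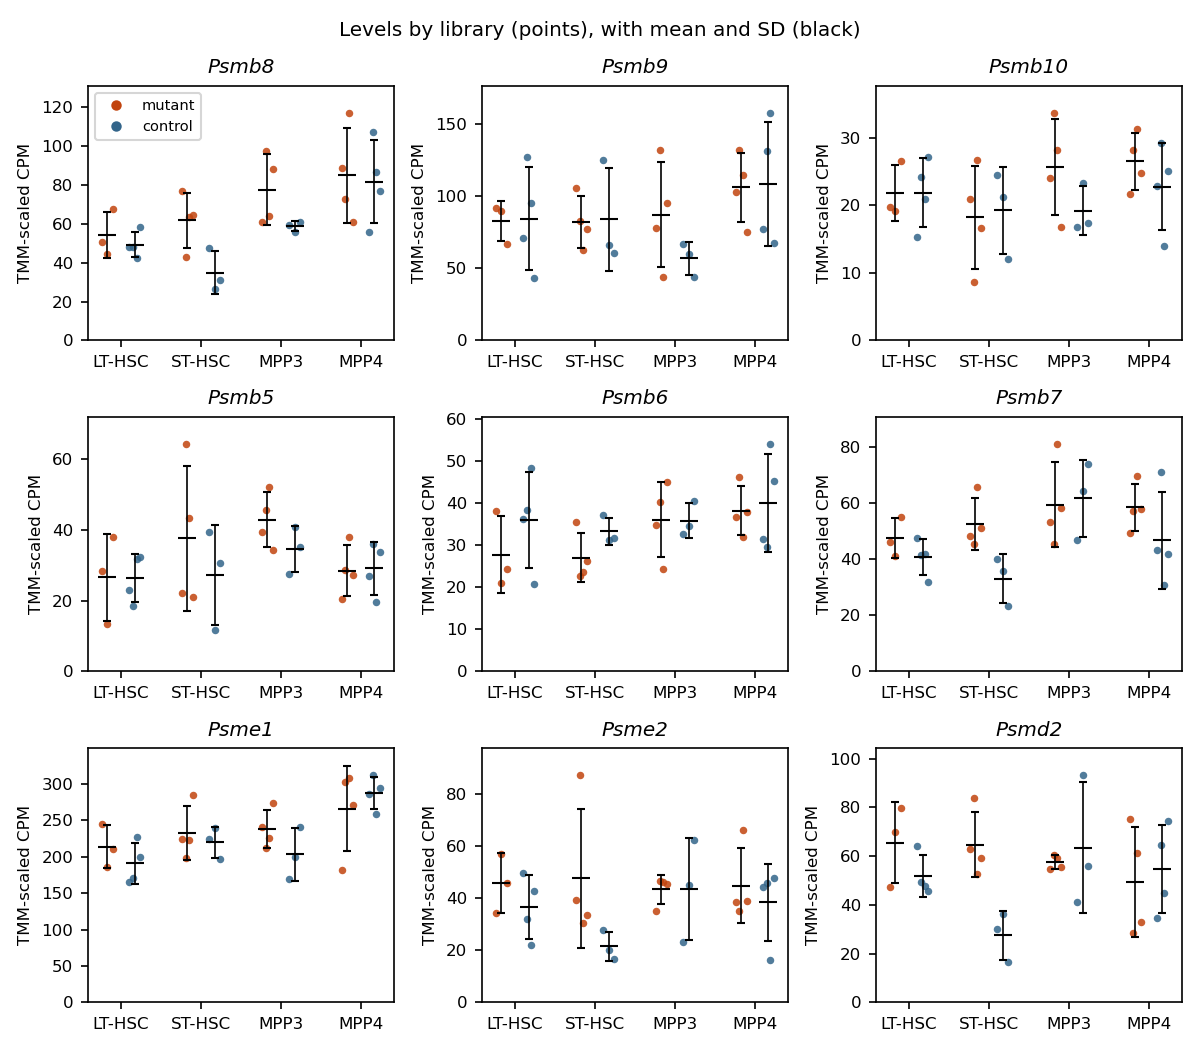
Level in TMM-scaled CPM of the 3 immune beta subunits, their 3 constitutive counterparts, Psme1, Psme2 and Psmd2 in every library by population, mutant in orange left of control in blue, with mean and SD. Psmb8 lies at 55.8 to 117 CPM in the 8 MPP4 libraries and at 42.5 to 67.7 CPM in the 7 LT-HSC libraries.

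The activators Psme2, Psme3 and Psme4 were not called between MPP4 and LT-HSC. Psme2, the partner of Psme1, averaged 44.7 ± 14.4 CPM in mutant and 38.4 ± 14.8 CPM in control MPP4 (SD, n = 4 each). In LT-HSC it averaged 45.7 ± 11.4 CPM in mutant and 36.5 ± 12.2 CPM in control libraries (SD, n = 3 and 4). Psme3 averaged 136 ± 27.8 CPM in mutant and 135 ± 49.7 CPM in control MPP4 (SD, n = 4 each), and 140 ± 46.4 CPM in mutant and 160 ± 31.8 CPM in control LT-HSC (SD, n = 3 and 4). Psme4, which forms the PA200 cap known from sperm and DNA repair, averaged 78.1 ± 8.98 CPM in mutant and 73.9 ± 18.3 CPM in control MPP4 (SD, n = 4 each), and 87.4 ± 13.97 CPM in mutant and 77.1 ± 12.3 CPM in control LT-HSC (SD, n = 3 and 4). Averaged over genotypes, MPP4 over LT-HSC gave -0.15 (SE 0.18) for Psme3 and -0.11 (SE 0.18) for Psme4. Over the 8 groups their means spread more widely: Psme3 averaged 189 ± 58.2 CPM in control MPP3, the highest, and 124 ± 10.98 CPM in control ST-HSC, the lowest (SD, n = 3 each). Psme4 averaged 72.9 ± 19.05 CPM in mutant MPP3, the lowest, and 96.1 ± 14.5 CPM in control MPP3, the highest (SD, n = 4 and 3). Psmb10 gave 0.17 (SE 0.24), and its single libraries ran from 8.65 to 33.7 CPM.

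A test for any difference among the 4 populations, averaged over genotypes, called the same pair, Psmb8 (adjusted p = 0.00254) and Psme1 (adjusted p = 0.0420) by edgeR with Benjamini-Hochberg adjustment, against 16.5% of all genes, with 4 members at an unadjusted p under 0.05 (28.5% of all genes). For Psmb8 the adjusted p stayed between 0.000944 and 0.0112 over all alternatives and over every single library left out. For Psme1 it ran from 0.00857 to 0.174, and the call was lost in 16 of the 29 ways of leaving out 1 library. In control libraries alone the test called Psmb8 (adjusted p = 0.0263), against 5.72% of all genes, and 4 members had an unadjusted p under 0.05 (19.2% of all genes). With the sample number as a block in edgeR, Psme1 lost its averaged call (adjusted p = 0.0517) and Psmb8 its call in control libraries (adjusted p = 0.0649). That call was lost without the 3 marker-high control LT-HSC libraries, which left 1 library in that group. The call was also lost without control LT-HSC replicate 2 (0.0509), without control ST-HSC replicate 2 (0.0679) or 3 (0.0614), and without control MPP4 replicate 2 (0.0887) or 3 (0.0617). In mutant libraries alone 0 members were called by edgeR, against 6.28% of all genes, with 1 at an unadjusted p under 0.05 (17.8% of all genes) and 1 (Psme2b) by DESeq2. Here too the shares are those of edgeR.

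In MPP3 against LT-HSC, averaged over genotypes, all 7 constitutive beta subunits were higher in MPP3, with log2 differences of 0.07 to 0.64 and a median of 0.46. This did not hold in control cells alone. There Psmb4 averaged 45.2 CPM in MPP3 and 53.8 CPM in LT-HSC, and Psmb6 was level (35.9 and 36.0 CPM). None of the 7 passed: by edgeR 0 of the 45 members were called, against 7.34% of all genes, and 4 had an unadjusted p under 0.05 (20.6% of all genes). Psmb3, a beta subunit without a protease site, had 55.7, 39.5, 42.0 and 39.5 CPM in mutant and 33.6, 58.0 and 40.7 CPM in control MPP3. In LT-HSC it had 27.6, 32.9 and 21.1 CPM in mutant and 38.3, 30.2, 31.2 and 17.4 CPM in control libraries. Mutant MPP3 libraries were all above mutant LT-HSC libraries, and in control cells the ranges overlapped. The averaged log2 difference of Psmb3 was 0.64 (SE 0.23), with an adjusted p of 0.0843 in edgeR with Benjamini-Hochberg adjustment. Without the 3 marker-high control LT-HSC libraries it was 1.02. The only control LT-HSC library then left had 17.4 CPM of Psmb3, the lowest of its group.

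Psmb2, another beta subunit without a protease site, gave 0.51 (SE 0.20, adjusted p = 0.113) and Psmb7, the trypsin-like subunit, 0.46 (SE 0.19, adjusted p = 0.143) in the same edgeR contrast. Leaving out control LT-HSC replicate 1, in which Psmb2 was highest of its group, gave Psmb2 0.65 with an adjusted p of 0.0316. In mutant MPP3 over mutant LT-HSC DESeq2 called Psmb2 (0.68, adjusted p = 0.0347), where edgeR called 0 members, against 3.09% of all genes, with 1 at an unadjusted p under 0.05 (14.1% of all genes). Both shares are those of edgeR, and none is given for DESeq2. In control MPP3 over control LT-HSC edgeR and DESeq2 both called 0 members, against 1.46% of all genes, with 2 at an unadjusted p under 0.05 by edgeR (13.1% of all genes). Of the 45 members, 34 were higher in MPP3 in the averaged contrast, where 50.1% of all genes were higher. Medians by role were -0.07 for alpha subunits, 0.22 for ATPases, 0.22 for non-ATPase subunits and 0.12 for activators. Beside the sums of antibody-secreting cell markers given above, which did not overlap in either genotype, several marker sums moved with this contrast. In mutant cells 8 markers of G2 and mitosis summed to 2324 to 2548 CPM in MPP3 and 1327 to 1795 CPM in LT-HSC, 6 B cell markers to 425 to 636 CPM in MPP3 and 50.02 to 142 CPM in LT-HSC, and 6 macrophage markers to 18.1 to 79.2 CPM in MPP3 and 6.45 to 8.01 CPM in LT-HSC. The T and NK cell and the dendritic sums were also higher in MPP3 without overlap in mutant cells, and in control cells all these ranges overlapped except that of the antibody-secreting cell markers. The part of these markers in this direction was not tested.

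ST-HSC against LT-HSC gave 0 called members by edgeR in the averaged contrast, against 1.48% of all genes, with 1 at an unadjusted p under 0.05 (11.5% of all genes). This was Psmb1, a beta subunit without a protease site, with 35.2, 93.6, 55.9 and 33.2 CPM in mutant and 20.6, 41.8 and 47.0 CPM in control ST-HSC. In LT-HSC it had 31.9, 34.3 and 18.3 CPM in mutant and 39.3, 32.2, 33.8 and 26.8 CPM in control libraries. The averaged log2 difference was 0.54 (SE 0.23) with an adjusted p of 0.323 in edgeR with Benjamini-Hochberg adjustment, and the highest value is from mutant replicate 2. Without that library the difference was 0.35 with an adjusted p of 0.644, and it no longer had an unadjusted p under 0.05. In both genotypes the sums of the G2 and mitosis markers were lower in ST-HSC than in LT-HSC without overlap. They were 712 to 967 CPM in mutant and 599 to 1171 CPM in control ST-HSC. The dendritic sums were higher in ST-HSC without overlap in both, at 136 to 161 CPM in mutant and 152 to 381 CPM in control ST-HSC. Macrophage, erythroid, and stromal and endothelial sums were higher without overlap in mutant cells. The sums of sorting markers, such as Kit and Flt3, were higher without overlap in control cells. The part of these markers was not tested. In single genotypes 0 members were called by edgeR and by DESeq2, against 0.298% of all genes in mutant and 0.174% in control libraries; at an unadjusted p under 0.05 there were 1 and 2 members, against 7.94% and 10.1% of all genes.

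MPP4 against MPP3 gave 0 called members by edgeR in the averaged contrast, against 5.67% of all genes, with 3 at an unadjusted p under 0.05 (17.1% of all genes): Psme2b (1.84, SE 0.66), Psme1 (0.33, SE 0.13) and Psmb9 (0.60, SE 0.23). Their adjusted p-values in edgeR with Benjamini-Hochberg adjustment ran from 0.106 to 0.143. Psmb9 had 103, 132, 115 and 74.97 CPM in mutant and 76.9, 131, 157 and 67.6 CPM in control MPP4, against 43.8, 95.4, 78.1 and 132 CPM in mutant and 66.6, 60.2 and 44.3 CPM in control MPP3. In control cells every MPP4 library was above every MPP3 library, and in mutant cells the ranges overlapped. Without mutant MPP4 replicate 1, Psme1 was called (0.40, adjusted p = 0.0450). In single genotypes 0 members were called by edgeR and by DESeq2, against 1.37% of all genes in mutant and 1.14% in control libraries. At an unadjusted p under 0.05 there were 1 and 2 members, against 11.5% and 11.1% of all genes. Several marker sums also moved with this contrast. In both genotypes the antibody-secreting cell, T and NK cell and macrophage sums were lower in MPP4 than in MPP3 without overlap. The dendritic and sorting marker sums were higher without overlap in both. The G2 and mitosis sums were lower without overlap in mutant cells, and the B cell and erythroid sums in control cells. The part of these markers was not tested.

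The mutant and the control libraries share no sample, so each gives its own estimate of a population difference. In MPP4 over LT-HSC, 18 members were higher in both genotypes and 7 lower in both, which is 55.6% of the 45, against 60.2% of all genes. In MPP3 over LT-HSC the counts were 24 and 5, or 64.4%, against 64.5% of all genes. In ST-HSC over LT-HSC they were 9 and 13, or 48.9%, against 56.1%, and in MPP4 over MPP3 10 and 17, or 60%, against 61.1%. In all 4 contrasts the agreement of direction between genotypes was close to or below that of all genes.

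The balance between immune and constitutive catalytic subunits was taken within each library as a log2 ratio of CPM values, which does not depend on scaling between libraries. The ratio is not one of levels per length: per kilobase of merged exons, Psmb8 stood at 0.538 of Psmb5, Psmb9 at 1.30 of Psmb6 and Psmb10 at 0.881 of Psmb7 over all libraries. With the longest coding transcript as the length these values were 1.116, 1.498 and 0.389. Psmb8 and Psmb5 thus change places with the length used. All 6 catalytic subunit genes were read in every library, so RNA of both sets was present in all 8 groups.

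For Psmb8 over Psmb5 the log2 ratio averaged 1.56 ± 0.42 in mutant and 1.48 ± 0.49 in control MPP4 (SD, n = 4 each), and 0.84 ± 0.48 in mutant and 0.78 ± 0.33 in control MPP3 (SD, n = 4 and 3). It averaged 0.84 ± 1.096 in mutant and 0.48 ± 0.59 in control ST-HSC (SD, n = 4 and 3), and 1.125 ± 0.51 in mutant and 0.92 ± 0.40 in control LT-HSC (SD, n = 3 and 4). MPP4 was highest in both genotypes, and its ranges overlapped those of MPP3 in both. The difference between MPP4 and MPP3 was 0.72 in mutant (p = 0.0857) and 0.70 in control cells (p = 0.114) by the exact two-sided permutation test.

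For Psmb10 over Psmb7 the log2 ratio was -1.61 ± 0.53 in mutant and -0.80 ± 0.12 in control ST-HSC (SD, n = 4 and 3), and no mutant library reached the control range (difference -0.81, exact permutation p = 0.0571). The lowest mutant value, -2.36, came from replicate 2. In control cells the ratio was -1.01 ± 0.24 in MPP4 and -1.66 ± 0.35 in MPP3 (SD, n = 4 and 3) without overlap, a difference of 0.65 with an exact permutation p of 0.0286, the smallest that 4 against 3 libraries can give. For Psmb9 over Psmb6 group means lay between 0.65 ± 0.47 in control MPP3 and 1.60 ± 0.43 in mutant LT-HSC (SD, n = 3 each). Over the family of 36 exact permutation tests of these ratios, 0 passed with Benjamini-Hochberg adjustment, the smallest adjusted p being 0.588. With 36 tests and no exact permutation p below 0.0286 possible, a single differing ratio could not have passed. The count of 0 therefore does not show that the ratios were alike.

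**Figure D5:**
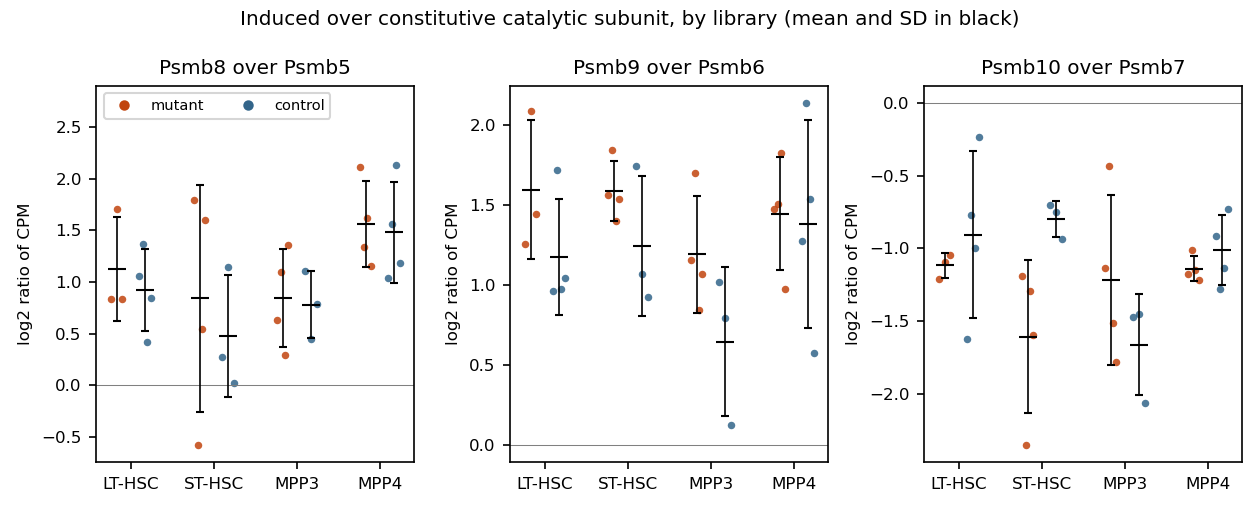
Log2 ratio of each immune to its constitutive catalytic subunit in every library by population, mutant in orange left of control in blue, with mean and SD. Psmb8 over Psmb5 averages 1.56 in mutant and 1.48 in control MPP4, and Psmb10 over Psmb7 averages -1.61 in mutant and -0.80 in control ST-HSC.

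Genes that serve the proteasome were read against the shares of all genes called, which were 0% in the average mutant effect, 1.48% in ST-HSC over LT-HSC, 7.34% in MPP3 over LT-HSC, 7.18% in MPP4 over LT-HSC and 5.67% in MPP4 over MPP3, each averaged over genotypes or populations. Of 13 assembly and associated factors, among them Pomp, the maturation chaperone of the core particle, 0 were called by limma in the average mutant effect and by edgeR in the averaged population contrasts, with 0 to 2 at an unadjusted p under 0.05. Of 11 ubiquitin, E1 and shuttle genes 0 were called in the same tests, with 0 or 1 at an unadjusted p under 0.05. Of 12 genes around Nfe2l1, the transcription factor that induces subunit genes when the proteasome is impaired, 1 was called. This was Bach1, a repressor that competes at antioxidant response sites, which was lower in MPP3 than in LT-HSC, with a log2 difference of -0.94 (SE 0.20) and an adjusted p of 0.00286 by edgeR with Benjamini-Hochberg adjustment. Nfe2l1 itself gave 0.15 (SE 0.15) for the average mutant effect. In that average the medians of the lists were 0.01, 0.04 and -0.02, against -0.03 over all genes.

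Of 11 genes of antigen processing and its inducers, 2 were called higher in MPP4 than in LT-HSC in the averaged contrast, against 2.9% of all genes called higher and 7.18% called in either direction. Tap2, a subunit of the peptide transporter that feeds MHC class I, had 57.3, 32.6, 81.8 and 26.7 CPM in mutant and 33.6, 54.2, 23.7 and 53.0 CPM in control MPP4, against 23.3, 27.5 and 17.9 CPM in mutant and 9.44, 18.7, 15.5 and 19.1 CPM in control LT-HSC. Control MPP4 libraries were all above control LT-HSC libraries, and the mutant ranges overlapped slightly. The log2 difference of Tap2 was 1.25 (SE 0.26) with an adjusted p of 0.00149 in edgeR with Benjamini-Hochberg adjustment. Irf8, a lineage transcription factor that also binds immunoproteasome promoters, gave 2.75 (SE 0.78, adjusted p = 0.0318) in the same test and 2.62 (SE 0.79, adjusted p = 0.0454) in MPP3 over LT-HSC. Irf8 was uneven between libraries of 1 group, with 55.4, 15.8, 15.6 and 2.68 CPM in control LT-HSC and 102, 2.49 and 2.39 CPM in control ST-HSC. Tap1, which shares its promoter region with Psmb9, gave 0.33 (SE 0.19, adjusted p = 0.400), and in the average mutant effect 0 genes of the list were called by limma. There 1, Irf8, had an unadjusted p under 0.05 (-1.07, SE 0.47, adjusted p = 0.813).

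Some of these levels are uncertain because RSEM divides reads that match several genes. Of the 50-base words of the longest coding transcript, 59.3% of those of Psme2 recur in Psme2b and 68.7% of those of Psme2b recur in Psme2. The pair sums to 51.2 ± 25.6 CPM in mutant and 23.9 ± 5.29 CPM in control ST-HSC (SD, n = 4 and 3). Psmb5 shares 49.4% of its words with Gm3375, Psmb3 39.9% with a copy known only by its clone name, Psma5 37.2% with Gm8394, and Psmd2 25.6% with Gm5422. Psma4 shares 25.6% with Gm6542, Psma3 22.0% with Gm13835 and Psme1 10.2% with Gm7776. These are shares with the single closest gene. Over all other genes they rise to 57.1% for Psmb5, 55.8% for Psmb3, 54.5% for Psma5, 26.4% for Psmd2 and 14.1% for Psme1. Psmb8 overlaps the antisense gene Gm20496 over 14.7% of its exons, Psmb9 overlaps Tap1 over 5.79% and Psmd9 overlaps Gm26745 over 25.5%.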

How the data were processed

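Per the labels, polyA RNA was extracted with the RNeasy Micro kit. The authors deposited expected counts per Ensembl gene, here whole numbers. The submitters' processing notes list edgeR 3.5.3, the build GRCm38, RSEM 1.2.12, SAMtools 0.1.18 and Bowtie2 2.2.0, without roles or order. RSEM shares out reads that match several genes, so near-identical copies can trade counts. Identifiers were matched to GENCODE vM21 symbols (37607 of 38924). The proteasome genes and the gene lists were chosen with earlier results of these data known.

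Genes were kept by filterByExpr (minimum count 10, minimum total 15) and scaled by TMM; CPM are counts on that common library size and log2 CPM use a prior count of 2. Tests used edgeR 4.0.16 (R 4.3.3; quasi-likelihood, robust) within each population, within each genotype and over all 29 libraries, and limma 3.58.1 with voom and the sample number as a block for the average mutant effect. P-values were adjusted by Benjamini-Hochberg over all genes tested, with a threshold of 0.05. DESeq2 1.42.0 was an alternative. Shares of all genes called are those of edgeR or limma throughout, and none is given for DESeq2. Genes named are those called or, where fewer than 3 were, the 3 with the smallest p, the catalytic pairs, the activators, the extremes per kilobase and Psmc3ip; others with an unadjusted p under 0.05 were named after their values were seen. Scripts were tested on simulated data. Depth was 6133994 to 10374672 counts per library, and 3 counts, the limit that a count of 0 allows, cover counting error only.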

Additional observations from a re-analysis of the deposited data

Results flagged for a closer look

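Each group of 4 libraries was searched for a single library far from the other 3. Over the 245 such groups of members and ratios tested, 17 (6.94%) held one, where chance gives about 1 in 20; those among the ratios and the genes whose levels are described follow as values. The log2 CPM of Psmb2 was 5.98 in control LT-HSC replicate 1, against 5.07 to 5.20 in the other control LT-HSC libraries, and that of Psmc2 was 7.04 in mutant MPP3 replicate 1, against 6.49 to 6.58 in the other mutant MPP3 libraries. The log2 ratio of Psmb9 over Psmb6 was 1.72 in control LT-HSC replicate 2, against 0.96 to 1.05 in the other control LT-HSC libraries. Psme2 stood apart in 3 groups: its log2 CPM was 6.05 in mutant MPP4 replicate 3, against 5.14 to 5.29 in the other mutant MPP4 libraries, and 4.06 in control MPP4 replicate 3, against 5.47 to 5.58 in the other control MPP4 libraries. In mutant MPP3 replicate 3 it was 5.13, against 5.51 to 5.55 in the other mutant MPP3 libraries. Psme2 shares reads with Psme2b, and the sum of both was also low in control MPP4 replicate 3, at 22.1 CPM.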

How the results depend on the processing

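Counts of members called were 0 in the 4 mutant comparisons, the average mutant effect and its difference between populations under every alternative run, which included DESeq2 for the single populations, other size factors, no filter, mitochondrial genes left out, the replicate block and each library left out. In the population contrasts DESeq2 called 2 members (control MPP4 over LT-HSC), 2 (any population difference, control libraries), and 1 each in mutant MPP3 over LT-HSC, mutant MPP4 over LT-HSC and any difference among mutant libraries. No share of all genes stands beside these DESeq2 counts. With the first code of the column header as a factor 1 was called in control MPP4 over LT-HSC. With the replicate block 0 were called for any difference in control libraries (Psmb8 0.0649) and 1 in the averaged test, as with DESeq2 size factors (1) and without the filter (1). These alternatives cost Psme1 its call in the averaged test, with adjusted p-values of 0.0517 with the replicate block, 0.0575 with those size factors and 0.0648 without the filter. The replicate block changed no other call. Each sample number recurs over populations of the same genotype. Correlations of deviations ran from -0.15 to 0.18 for the sample number and from -0.18 to 0.09 for the title's number. These show no strong shared part, and whether libraries of the same number share a source was not tested. The cause of these changes was not tested.

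Leaving out the 3 control LT-HSC libraries high in S100a8 (chosen after seeing the data) left 1 control LT-HSC library, with a Psme2b count of 0. The call of Psmb8 for any difference in control libraries was then lost. So were the calls of Psmb8 and Psme1 in averaged MPP4 over LT-HSC. Psme2b had 5.75 in that contrast, a fitted value and no measure of size. The signs of Psmc6 (0.043) and Psme2b (5.95) then turned in mutant over control LT-HSC, where 1 control library, with a Psme2b count of 0, was left and was assumed to vary like the others. Leaving out 1 library at a time gave 0 to 1 calls in control MPP4 over LT-HSC, any control difference, averaged MPP3 over LT-HSC and averaged MPP4 over MPP3. It gave 0 to 3 in averaged MPP4 over LT-HSC and 1 to 3 in the averaged test of any difference. In control MPP4 over LT-HSC the call was Psme1 without control LT-HSC replicate 4 (0.0296) or control ST-HSC replicate 3 (0.0467), and Psmb8 without control MPP4 replicate 1 (0.0494). Levels per kilobase of Psme1 (210) and Psmd9 (5.86) moved with the longest coding transcript as length. Depth limits Psma8 (2 to 73 counts, median 23) and Psme2b (0 to 96 counts, median 22). Only their lowest libraries came near the limit that a count of 0 allows. Psmd9 and Psmd10 fell to 4 counts in mutant MPP3 replicate 1.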
